A study of Mus musculus with 8 samples.

Results

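The genes described here are the motors that carry cargo along microtubules, together with the kinesins that work on the mitotic spindle. All genes of the count file were taken whose mouse symbol begins with Kif and a digit, Klc and a digit, Dync or Dynl, leaving out symbols that end in os or -ps. The symbol rule matched 63 genes and kept 60 of the 55573 genes counted, of which 59 are annotated as protein coding and 1, Dynlt1-ps1, as a processed pseudogene. By role, 14 were axonal transport kinesins, 4 kinesin light chains, 5 core subunits of dynein 1, 9 dynein light chains, 8 motors of the cilium and 12 mitotic kinesins, and 8 had no such role list. After a filter on low counts, 53 of the 60 could be tested and 7 could not.

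RNA was sequenced from C low-threshold mechanoreceptors (C-LTMRs), unmyelinated touch neurons, sorted as GFP+ cells from adult mice that lacked Bhlha9 (KO) or were wild type (WT). Bhlha9 encodes a basic helix-loop-helix (bHLH) transcription factor, and the title of the study concerns thermotaxis, formalin-evoked pain and differences between the sexes. The 4 groups were male KO, male WT, female KO and female WT, each with 2 libraries that the submitters call biological replicates. Full-length cDNA was amplified from 500 pg of total RNA per library. The allele behind the KO, the driver of the GFP, the age in weeks and any pooling of animals are not given in the sources used here.

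Kinesins step along microtubules mostly toward the plus end, which in an axon points to the terminal, and cytoplasmic dynein carries cargo back to the cell body. A sensory neuron depends on both, because proteins, vesicles and mitochondria made in the ganglion must reach endings in the skin and the spinal cord. Other kinesins build the mitotic spindle and close the cleavage furrow, and neurons that have left the cell cycle need them little for that task.

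The libraries held between 50919885 and 71956309 counts. Bhlha9 stood between 0.156 and 0.470 CPM (counts scaled to the size of the library) in the 4 KO libraries and between 127 and 161 CPM in the 4 WT libraries. The C-LTMR marker Th ranged from 2973 to 5358 CPM, and glial markers summed to between 3424 and 6078 CPM, with Sox10 between 1.19 and 12.0 CPM. The 13 immune markers summed to between 14.2 and 26.5 CPM, of which Csf1r gave between 11.7 and 25.4 CPM. Between 1 and 3 of them reached 1 CPM in a library, and Cd3e and Itgam had 0 counts in all 8. The library male_KO1 stood apart. Its markers of myelinated afferents summed to 2603 CPM, against 311 to 634 CPM in the other 7 libraries, and its Th was the lowest. In males these markers moved with genotype, at 2603 and 634 CPM in KO and 453 and 311 CPM in WT libraries. Peptidergic neuron markers also did so, at 1527 and 2099 CPM in male KO libraries and 706 and 764 CPM in male WT libraries. C-LTMR markers, Bhlha9 among them, summed to 5814 and 8138 CPM in male KO and 8984 and 9048 CPM in male WT libraries. Both male KO libraries lay below both male WT libraries for 8 of the 13 C-LTMR markers, against 14.5% of all tested genes. They lay above for 7 of 13 tested myelinated afferent markers, 5 of 11 peptidergic, 4 of 10 nonpeptidergic, 12 of 16 glial, 6 of 14 vascular and fibroblast and 0 of 6 immune markers, against 14.5% of all tested genes. In females both KO libraries lay below both WT libraries for 4 of 13 myelinated afferent, 7 of 11 peptidergic, 2 of 10 nonpeptidergic, 5 of 16 glial, 2 of 14 vascular and fibroblast, 0 of 6 immune and 1 of 13 C-LTMR markers, against 15.1% of all tested genes. The female C-LTMR marker that lay below was Bhlha9 itself, which is also 1 of the 8 in males. Both female KO libraries lay above both female WT libraries for 3 of 13 C-LTMR markers, against 14.2% of all tested genes. The part of these cell types in the motor values was not tested.

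The promoters of the mitotic kinesins carried a shared sequence that those of the axonal kinesins mostly lacked, so both kinds are shown here. The sequences are those of RefSeq on GRCm38.p6, taken from 250 bases before to 50 after each start, and 45 of the 60 genes matched an entry. The cell cycle genes homology region (CHR) is an element of many promoters that are silenced outside the dividing cell, and its letters were searched as TTTGAA on both strands. It was found in 9 of 11 promoters of mitotic kinesins (81.8%), in 1 of 12 promoters of axonal transport kinesins (8.33%, an entry of Kif1a) and in 17.9% of all 32851 promoters in the table. In 7 of the 9 promoters the nearest match began within 25 bases of the start. The nearest match in each, in 30 bases with the match in capitals, read as follows on the strand of the gene, where TTCAAA is the same element on the other strand.
Kif11 (chr19:37376351-37376380, plus strand): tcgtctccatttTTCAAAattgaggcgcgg
Kif15 (chr9:122951050-122951079, plus strand): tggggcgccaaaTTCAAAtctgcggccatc
Kif18b (chr11:102925104-102925133, minus strand): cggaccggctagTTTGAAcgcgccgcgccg
Kif20b (chr19:34922353-34922382, plus strand): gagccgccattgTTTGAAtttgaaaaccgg
Kif22 (chr7:127042420-127042449, minus strand): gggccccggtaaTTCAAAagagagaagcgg
Kif23 (chr9:61946780-61946809, minus strand): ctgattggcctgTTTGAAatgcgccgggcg
Kif4 (chrX:100626072-100626101, plus strand): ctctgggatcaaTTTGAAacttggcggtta
Kif14 (chr1:136467608-136467637, plus strand): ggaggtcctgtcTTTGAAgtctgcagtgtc
Kif2c (chr4:117178858-117178887, minus strand): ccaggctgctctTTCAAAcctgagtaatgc

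Set beside these are the 250 bases before the starts of Kif11, a spindle motor, and Kif5c, an axonal motor. They are 1 example of each role and do not stand for it, and the shares of each role follow them. Capitals mark matches on either strand to the CHR, to the CCAAT box (CCAAT, bound by the NF-Y factor) and to the E-box (CANNTG, the element that bHLH proteins bind). The stretch before Kif11 held 1 CHR and 1 CCAAT box and no E-box, and the stretch before Kif5c held 1 E-box and neither of the others.
Kif5c (chr2:49619036-49619285, plus strand): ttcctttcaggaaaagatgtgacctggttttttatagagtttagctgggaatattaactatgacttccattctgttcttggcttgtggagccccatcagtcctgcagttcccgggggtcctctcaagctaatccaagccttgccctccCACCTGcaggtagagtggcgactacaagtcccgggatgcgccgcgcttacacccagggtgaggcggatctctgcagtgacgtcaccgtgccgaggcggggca
Kif11 (chr19:37376132-37376381, plus strand): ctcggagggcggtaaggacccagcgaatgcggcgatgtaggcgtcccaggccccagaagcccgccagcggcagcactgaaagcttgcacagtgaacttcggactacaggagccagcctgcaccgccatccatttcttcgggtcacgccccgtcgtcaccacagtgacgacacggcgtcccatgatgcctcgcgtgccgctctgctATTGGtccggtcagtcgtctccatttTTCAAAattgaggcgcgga
The CCAAT box was in 7 of 11 mitotic and 4 of 12 axonal promoters, against 37.4% of all promoters. The E-box was in 10 of 12 axonal and 7 of 11 mitotic promoters, against 72.3% of all promoters. Matches describe letters in these windows and say nothing of binding.

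C-LTMRs carried axonal motors at levels far above mitotic ones. Levels between genes are compared as CPM per kilobase (kb) of exon, averaged over the 8 libraries, with the SD over libraries. The median axonal transport kinesin lay between 21.5 and 31.0 CPM per kb in each library, and the median mitotic kinesin between 0.00227 and 0.0750 CPM per kb. With 0.1 CPM per kb added to both medians, the axonal one was higher by 7.76 ± 0.41 on the log2 scale (SD, n = 8 libraries), a description that the added 0.1 limits. Summed over genes, the 14 axonal kinesins gave a mean of 4744 CPM and the 12 mitotic kinesins 37.1 CPM. All 14 axonal kinesins passed the low-count filter, and 13 of them had at least 5 CPM in every library. Of the mitotic kinesins 8 averaged below 1 CPM, and 8 had 0 counts in at least 1 library. In sorted bulk RNA, fewer cells of a type and less RNA per cell cannot be told apart.

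**Figure D1:**
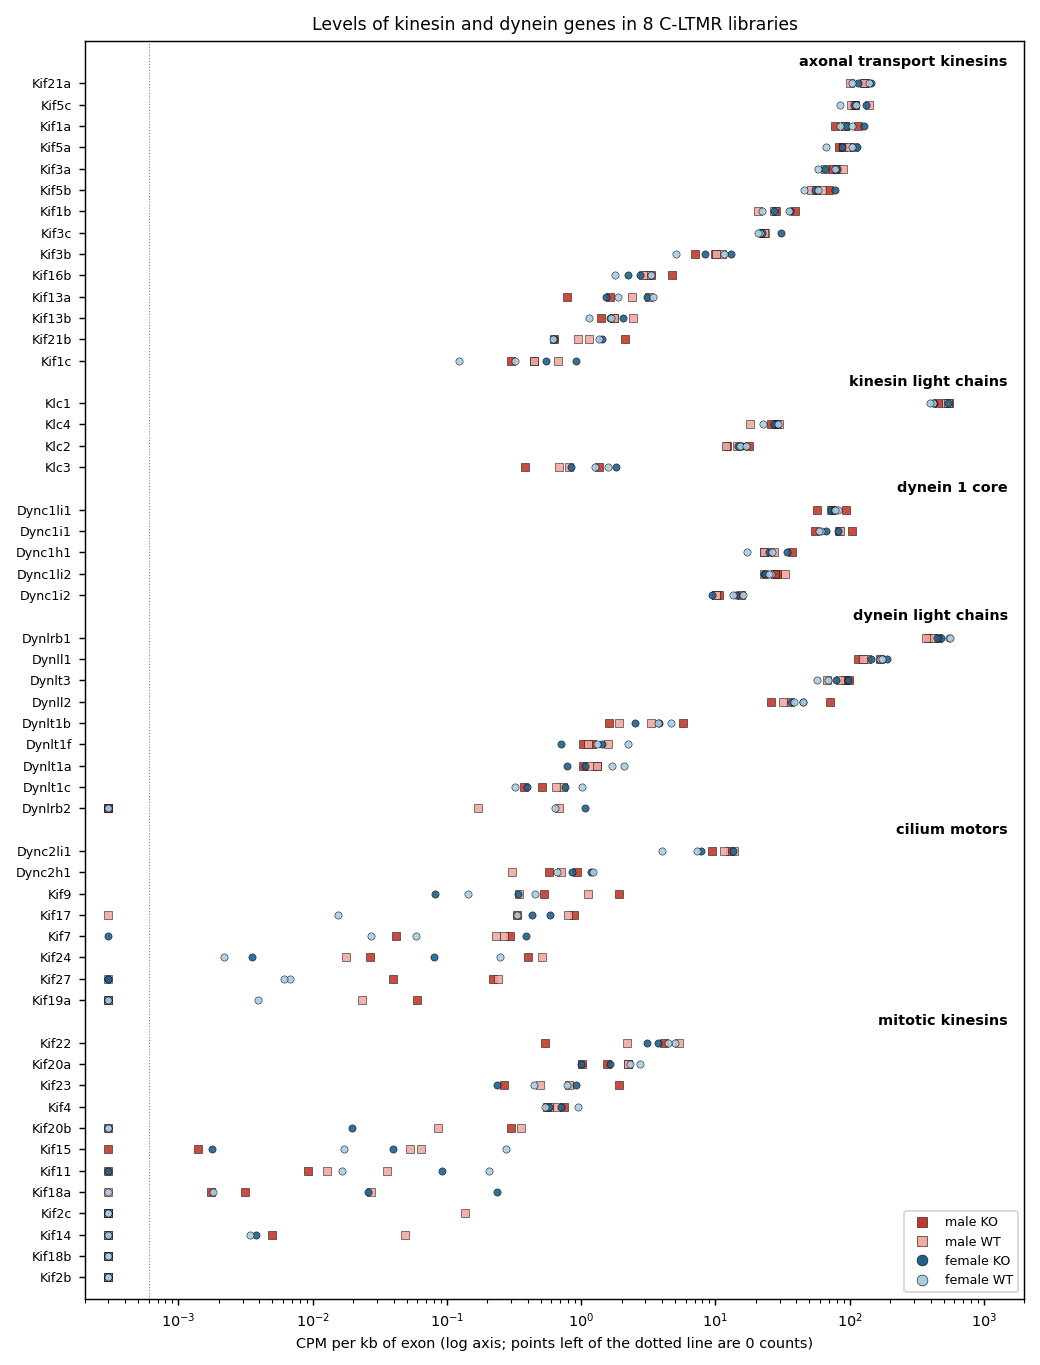
Level of each motor gene with a role list in CPM per kb of exon on a log axis, with 1 point per library, squares for males and circles for females, darker for KO than for WT. Points left of the dotted line had 0 counts. Klc1 and Dynlrb1 led at 481 and 457 CPM per kb, and Kif18b and Kif2b had no counts in any library.

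Among the plus-end motors, Kif21a led. This kinesin-4, which restrains microtubule growth in axons, averaged 124 ± 16.2 CPM per kb, ranging from 100.1 to 145 over the 8 libraries. Kif5c, a heavy chain of kinesin-1, the main carrier of fast axonal transport, averaged 112 ± 17.3 CPM per kb. Kif1a, the kinesin-3 that carries synaptic and dense-core vesicle precursors, averaged 98.2 ± 16.7 CPM per kb, and Kif5a, a neuronal heavy chain, 93.8 ± 15.0 CPM per kb. The ranges of these 4 genes over libraries overlapped, so their order is not set by these data. Kif3a, the shared subunit of heterotrimeric kinesin-2, followed at 73.7 ± 10.1 CPM per kb, Kif5b at 59.6 ± 10.4, Kif1b at 29.6 ± 6.65 and Kif3c at 23.4 ± 3.18 CPM per kb.

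The other axonal kinesins were lower. Kif3b averaged 9.56 CPM per kb, and Kif16b, Kif13a, Kif13b, Kif21b and Kif1c lay between 0.471 (Kif1c) and 3.01 CPM per kb (Kif16b). These carry endosomes and membrane cargo (Kif16b, Kif13a and Kif13b) or are relatives of the abundant ones (Kif21b and Kif1c). Some paralogues thus stood far apart, with Kif21a between 61.5 and 228 times the level of Kif21b per kb. Kif1a stood between 2.76 and 4.39 times the level of Kif1b.

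The 3 kinesin-1 heavy chains came in close proportions in all 8 libraries. Of their summed CPM per kb, Kif5c took 41.4% and 42.7% in male KO, 46.5% and 39.4% in male WT, 44.3% and 38.9% in female KO, and 40.6% and 42.9% in female WT libraries. Kif5a took 31.8% and 35.2% in male KO, 32.8% and 40.99% in male WT, 29.5% and 41.02% in female KO, and 38.1% and 33.9% in female WT libraries. Kif5b, the heavy chain that most tissues use, took between 19.6% and 26.8%. KO and WT overlapped in each sex for Kif5a and Kif5c. For Kif5b they overlapped in females, and both male KO libraries, at 26.8% and 22.1%, lay above both male WT libraries, at 20.7% and 19.6%. By their CPM, 14.5% of all tested genes lay above in this way in males. Kif5a exceeded Kif5c in male_WT2 and female_KO2, and Kif5c exceeded Kif5a in the other 6 libraries.

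Of the kinesin light chains, which tie kinesin-1 to cargo, Klc1 dominated. It had 1847 and 2229 CPM in male KO, 2129 and 2191 CPM in male WT, 1735 and 2200 CPM in female KO, and 1708 and 1617 CPM in female WT libraries. The groups overlapped in males, and both female KO libraries lay above both female WT libraries, as for 14.2% of all tested genes. Per kb, Klc1 averaged 481 ± 62.7, Klc4 26.3 ± 4.10, Klc2 14.9 ± 2.05 and Klc3 1.09 ± 0.489 CPM per kb. Klc3 shared 28.1% of its exon bases with Ercc2 on the opposite strand, which averaged 7.76 CPM against 2.89 CPM for Klc3. Reads of the 2 genes cannot be told apart in the shared bases, since counting was unstranded. Light chains together had between 1.59 and 2.32 times the CPM per kb of the Kif5 heavy chains.

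Of dynein 1, the heavy chain Dync1h1, which holds the motor itself, averaged 26.7 ± 6.35 CPM per kb. The light intermediate chain Dync1li1 averaged 75.6 ± 10.2 and its paralogue Dync1li2 26.2 ± 3.54 CPM per kb. The intermediate chain Dync1i1, the form enriched in neurons, averaged 74.5 ± 16.8 and the widespread Dync1i2 12.4 ± 2.66 CPM per kb. The ratio of Dync1i1 to Dync1i2 per kb varied most among these pairs, at 3.57 and 9.77 in male KO, 8.30 and 8.45 in male WT, 4.64 and 8.77 in female KO, and 3.82 and 4.35 in female WT libraries. The lowest value was that of male_KO1, the library with the high myelinated afferent markers, whose part in the ratio was not tested. Both male WT libraries lay above both female WT libraries. KO and WT overlapped in males, and both female KO libraries lay above both female WT libraries. By their CPM, 14.2% of all tested genes lay above in this way in females.

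**Figure D2:**
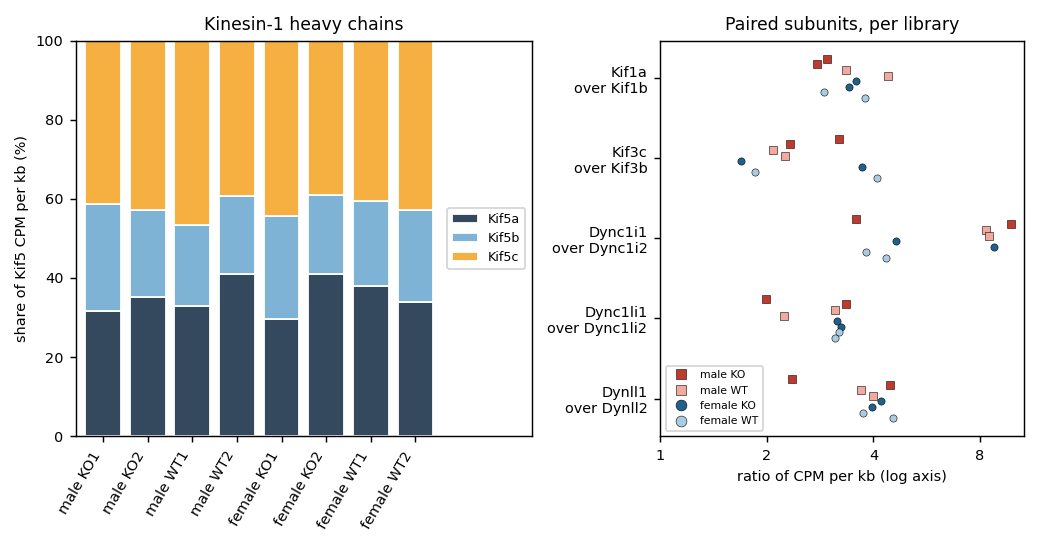
Left, share of each Kif5 gene in their summed CPM per kb, 1 bar per library, with KO left of WT in each sex. Right, ratios of CPM per kb between paired subunits on a log axis, 1 point per library. Kif5 shares stayed within 19.6% to 26.8% for Kif5b, and Dync1i1 over Dync1i2 spread from 3.57 to 9.77.

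Dynein light chains link the complex to cargo, and some also act apart from it. The roadblock chain Dynlrb1 averaged 457 ± 71.1, the LC8 chain Dynll1 152 ± 25.8, the Tctex chain Dynlt3 80.6 ± 14.9 and Dynll2 41.1 ± 13.5 CPM per kb. Dynll2 was highest in male_KO1, at 193 CPM, against 70.8 to 123 CPM in the other 7 libraries. Dynlrb2, a roadblock chain of ciliated cells, had 0 counts in 4 libraries and under 1 CPM in the others. The Tctex genes Dynlt1a, Dynlt1b, Dynlt1c and Dynlt1f lay between 0.596 and 3.41 CPM per kb, and the pseudogene Dynlt1-ps1 at 87.9 CPM per kb. Of the 50-base stretches in their annotated transcripts, 50.3% (Dynlt1a), 83.2% (Dynlt1b), 76.3% (Dynlt1c), 93.1% (Dynlt1f) and 100% (Dynlt1-ps1) were shared with another copy. The levels of single Dynlt1 copies are therefore uncertain, since the deposited header names alignments marked as unique. Dynlt3 shared none of its stretches with them.

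Cilium motors were low apart from Dync2li1, the light intermediate chain of dynein 2, which carries cargo back down the cilium. It averaged 10.03 ± 3.48 and the heavy chain of the same motor, Dync2h1, 0.805 ± 0.311 CPM per kb. Kif9, a kinesin of motile cilia, averaged 0.614 ± 0.611 CPM per kb, a spread as large as the mean. Kif17, Kif7, Kif24, Kif27 and Kif19a averaged at most 0.422 CPM per kb (Kif17).

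The mitotic kinesins were not all near 0. Kif22, a chromokinesin that pushes chromosome arms, averaged 3.57 ± 1.59 CPM per kb, Kif20a, which acts at the central spindle, 1.84 ± 0.638, Kif23 of the centralspindlin complex 0.732 ± 0.539, and Kif4, a chromokinesin, 0.662 ± 0.138 CPM per kb. These 4 exceeded the lowest axonal kinesin, Kif1c. Kif22 also exceeded Kif16b, Kif13a, Kif13b and Kif21b, and Kif20a also exceeded Kif13b and Kif21b. Kif4 shared 15.1% of its exon bases with Pdzd11 on the opposite strand, which averaged 93.0 CPM, and Kif20a shared 29.3% with Cdc23. Reads were counted without strand, so reads of such pairs cannot be told apart in the shared bases. The 22 proliferation markers summed to between 47.2 and 75.1 CPM, and 6 to 14 of them reached 1 CPM in a library. Of the 22, 9 had counts in all 8 libraries, and the highest marker of a library stood between 4.80 and 8.28 CPM per kb. The part of any dividing cells in the counts of the mitotic kinesins was not tested. The remaining 8, among them the spindle motors Kif11 and Kif15, averaged at most 0.0950 CPM per kb (Kif20b). Kif18b and Kif2b had 0 counts in all 8 libraries, which allows up to between 0.0417 and 0.0589 CPM per library by the limit of 3 counts, for counting error only.

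Of the 8 genes with no role list, Kif1bp, a protein that binds kinesins and is no motor itself, averaged 22.0 CPM per kb, and Kif2a, which takes microtubules apart at their ends, 5.43 CPM per kb. Kif26b, Kif28, Kif26a and Kif6 averaged at most 0.341 CPM per kb, and Kif12 had no counts.

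No motor gene passed the test for a difference between KO and WT. In males the quasi-likelihood test of edgeR called 0 of the 53 tested at an adjusted p below 0.05 over all genes, where the background was 0.00454% of 22013 genes, a single gene, Bhlha9. At an unadjusted p below 0.05 it gave 1 motor gene, Kif15, against a background of 3.5%. In females it called 0, with the same background of 0.00454%, and 3 motor genes at an unadjusted p below 0.05, Dynlt3, Kif1c and Kif18a, against 3.81%. Across both sexes it called 0, with 0.00454% called in the background, and 3 at an unadjusted p below 0.05, Dynlt3, Kif20a and Kif15, against 3.56%. Kif15, Kif18a and Kif1c are named here after their values were seen, and Kif15 and Kif18a stood at most at 3.02 and 2.32 CPM. DESeq2, used as an alternative, also called 0 motor genes in each of these, where it called 0.843%, 0.83% and 0.251% of all genes with an adjusted p in males, females and both. None of the 60 was among the 150 genes for males or the 13 for females in the authors' deposited tables.

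Libraries of KO and WT separated about as often as for other genes. In males 6 motor genes had both KO values above both WT values and 9 had them below, against 14.5% above and 14.5% below among all genes tested. In females the counts were 9 above and 8 below, against 14.2% and 15.1%. Across both sexes all 4 KO libraries lay above all 4 WT libraries for 0 motor genes and below for 1, Kif20a, against 0.936% and 0.895% of all genes. With 2 libraries a group and SEs near 0.2 on the log2 scale for well-expressed motors, modest differences were not detectable. Larger differences of other genes did not pass edgeR either. In males these included -2.09 (SE 0.51) for the dynein adaptor Hook2. They also included 3.55 (SE 0.50) for Sh2d5, which shares exon bases with Kif17.

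The roles are described by their median log2 difference, with no test. For the 14 axonal kinesins the median log2 difference between KO and WT was -0.00 in males (7 higher, 7 lower). It was 0.23 in females (12 higher, 2 lower) and 0.15 across both (11 higher, 3 lower). All tested genes had medians of 0.02, 0.00 and 0.01, and 51.9%, 49.0% and 51.4% of them were higher in KO. The female value of the axonal kinesins ranged with single libraries left out from 0.02 (without female_WT2) to 0.43 (without female_WT1). The 5 dynein 1 core genes had medians of 0.05, -0.11 and 0.03, and the 9 dynein light chains 0.10, -0.21 and -0.08, in males, females and both. Without male_KO1 the light chain median was -0.39 in males and -0.47 across both. The 4 kinesin light chains had 0.18, 0.02 and 0.07. For the 8 tested mitotic kinesins the medians were -0.75, -0.34 and -0.33. The male median lay between Kif20a (-0.79) and Kif22 (-0.70), the female one between Kif22 (-0.46) and Kif4 (-0.21), and that across both between Kif22 (-0.58) and Kif4 (-0.07). Without male_KO1 the mitotic median was -2.43 in males and -1.02 across both, over 10 tested genes, and without female_WT1 it was 0.13 in females.

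**Figure D3:**
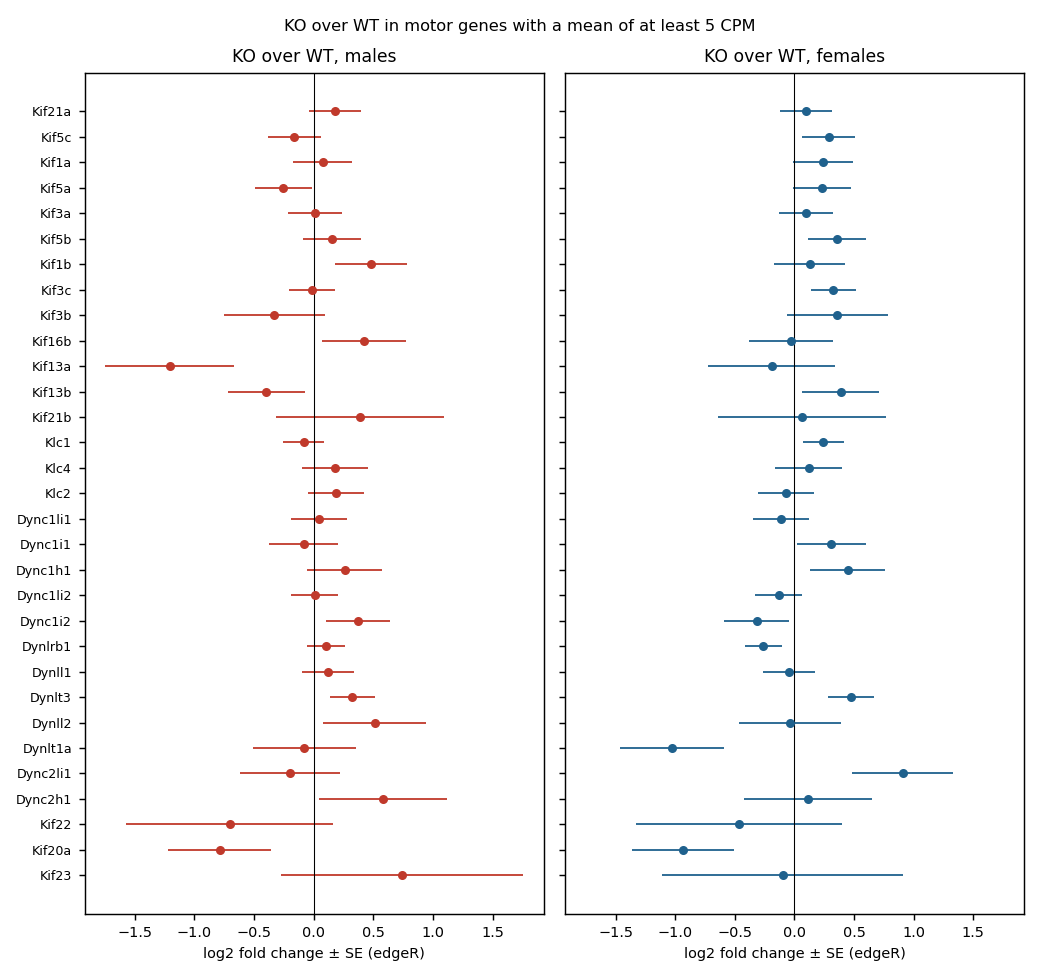
log2 difference between KO and WT in males (left) and females (right), with an SE derived from the edgeR test. Shown are motor genes with a role list and a mean of at least 5 CPM. Among them Kif13a had the lowest value in males (-1.21) and Dynlt1a in females (-1.03), and none passed the test.

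Dynlt3 had the smallest p of all motor genes across both sexes. This Tctex-type light chain is encoded on the minus strand of chromosome X (GRCm38, chrX:9654267-9663003). It stood at 236 and 255 CPM in male KO and 176 and 216 CPM in male WT libraries. In females it stood at 249 and 204 CPM in female KO and 148 and 178 CPM in female WT libraries. Within each sex both KO values exceeded both WT values, but the lowest KO value (female_KO2) was below the highest WT value (male_WT2). The log2 difference was 0.32 (SE 0.19) in males, 0.47 (SE 0.19) in females and 0.40 (SE 0.13) across both, with an unadjusted p of 0.0143 and an adjusted p of 1 in the last by edgeR. Such a pattern, with KO above WT in each sex, was shown by 1 of 53 motor genes (1.89%) and by 1.92% of all tested genes.

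Kif20a was the only motor gene whose 4 KO libraries all lay below the 4 WT libraries. This kinesin of cytokinesis is encoded on the plus strand of chromosome 18 (GRCm38, chr18:34624613-34633277). It stood at 4.42 and 6.80 CPM in male KO and 9.64 and 9.71 CPM in male WT libraries. In females it stood at 4.32 and 7.16 CPM in female KO and 10.1 and 11.9 CPM in female WT libraries. The highest KO value was that of female_KO2 and the lowest WT value that of male_WT1. The log2 difference across both sexes was -0.86 (SE 0.28), with an unadjusted p of 0.0162 and an adjusted p of 1 by edgeR, and DESeq2 gave an adjusted p of 0.424. Cdc23, a subunit of the anaphase-promoting complex that shares 1271 of the 4338 exon bases of Kif20a on the opposite strand, stood at 29.8 and 34.0 CPM in male KO and 40.7 and 47.6 CPM in male WT libraries. In females Cdc23 stood at 16.4 and 41.7 CPM in KO and 34.0 and 39.9 CPM in WT libraries. Its log2 difference across both sexes was -0.41 (SE 0.28, edgeR adjusted p = 1). Its part in the Kif20a counts was not tested.

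Kif13a, a kinesin-3 of recycling endosomes, had the smallest p in males among genes of at least 5 CPM. It stood at 6.43 and 13.4 CPM in male KO and 26.1 and 19.6 CPM in male WT libraries, a log2 difference of -1.21 (SE 0.54, edgeR adjusted p = 1). In females it stood at 25.5 and 12.5 CPM in KO and 27.9 and 15.4 CPM in WT libraries. KO lay below WT in males and overlapped it in females, and the 2 WT groups overlapped each other. The lowest value was that of male_KO1, and without that library the male difference was -0.77. The markers of myelinated and peptidergic neurons given above moved with genotype in males too, and their part in the male values was not tested.

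The other motor genes with small p in males were Kif1b, Kif13b and Dync1i2. Kif1b, a carrier of mitochondria and vesicle precursors, stood at 691 and 494 CPM in male KO and 482 and 368 CPM in male WT libraries (log2 difference 0.48, SE 0.30). Kif13b stood at 22.8 and 18.2 CPM in male KO and 22.7 and 31.4 CPM in male WT libraries (-0.40, SE 0.32), so the groups overlapped. Dync1i2 stood at 128 and 87.9 CPM in male KO and 83.3 and 83.3 CPM in male WT libraries (0.37, SE 0.27). For Kif1b and Dync1i2 both KO values exceeded both WT values, with male_KO1 the highest each time. All had an edgeR adjusted p of 1.

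In females Dynlt1a stood at 4.56 and 3.33 CPM in KO and 7.25 and 8.82 CPM in WT libraries, a log2 difference of -1.03 (SE 0.43). Both KO libraries lay below both WT libraries, and this is 1 of the copies whose reads are uncertain. Dync2li1 stood at 25.1 and 14.7 CPM in female KO and 7.44 and 13.7 CPM in female WT libraries (0.91, SE 0.42). Kif3c, the kinesin-2 subunit that pairs with Kif3a, stood at 164 and 230 CPM in female KO and 160 and 154 CPM in female WT libraries (0.33, SE 0.19). Here too KO lay above WT for both genes, narrowly so in 1 KO library of each. Kif3c shared 43.3% of its exon bases with genes on the opposite strand, among them 1110002L01Rik, which averaged 85.2 CPM. Kif26b, an atypical kinesin with no role list here, stood at 7.04 and 1.88 CPM in female KO and 1.55 and 0.712 CPM in female WT libraries (1.98, SE 1.001). All had an edgeR adjusted p of 1.

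Across both sexes the dynein heavy chain Dync1h1 stood at 579 and 363 CPM in male KO and 424 and 363 CPM in male WT libraries. In females it stood at 536 and 394 CPM in female KO and 415 and 268 CPM in female WT libraries. KO and WT overlapped in each sex, with male_KO1 the highest library and female_WT2 the lowest. The log2 difference was 0.35 (SE 0.21, edgeR adjusted p = 1). The most abundant axonal kinesins differed less, with 0.14 (SE 0.14) for Kif21a, 0.06 (SE 0.17) for Kif5c and 0.16 (SE 0.17) for Kif1a across both sexes. For Klc1 it was 0.08 (SE 0.13), and for Dynlrb1 -0.08 (SE 0.12).

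**Figure D4:**
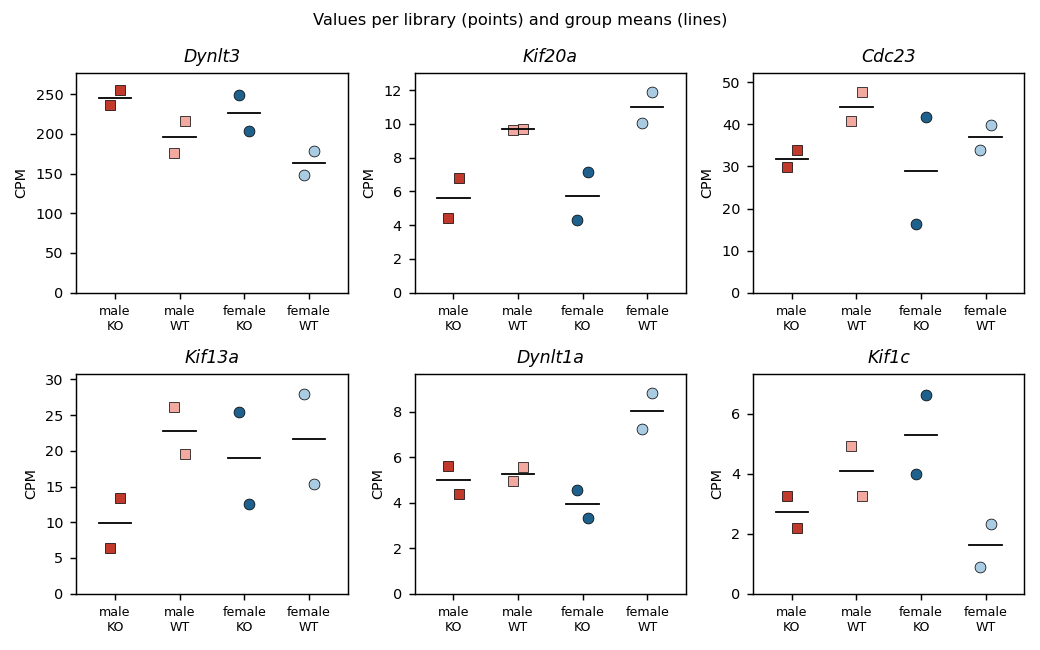
CPM per library (points) and group means (lines) for 5 motor genes and for Cdc23, which shares exon bases with Kif20a, in male KO, male WT, female KO and female WT. Kif20a lay between 4.32 and 7.16 CPM in KO libraries and between 9.64 and 11.9 CPM in WT libraries.

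No motor gene showed a genotype effect that differed by sex beyond the test's threshold. For the difference between the male and the female effect, edgeR called 0 of 53, with 0% of all genes called, gave 1 (Kif18a) at an unadjusted p below 0.05 against a background of 4.73%, and DESeq2 called 0, against 1.12% of all genes. Between males and females edgeR called 0 motor genes, with 0.0136% of all genes called, gave 3 at an unadjusted p below 0.05 (Dynlrb1, Kif27 and Kif9) against 4.8%, and DESeq2 called 0, against 0.424%. Dynlrb1 had a log2 difference of -0.32 (SE 0.12, edgeR adjusted p = 0.958) between males and females. No motor gene had all 4 male libraries above or below all 4 female ones, against 1.53% and 1.47% of all genes.

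The partners of the motors gave few differences. Of 22 genes of dynactin and dynein adaptors, all tested, edgeR called 0 in males, females and both, with 11, 10 and 12 higher in KO than in WT, and medians of 0.01, -0.02 and 0.01. At an unadjusted p below 0.05 it gave 2, 1 and 0 of them, against 3.5%, 3.81% and 3.56% of all genes. DESeq2 called Hook2 in males and none of the 22 in females or both, against 0.843%, 0.83% and 0.251% of all genes. Of 29 kinesin adaptors and regulators, all tested, edgeR called 0, with 16, 19 and 19 higher and medians of 0.04, 0.08 and 0.03. At an unadjusted p below 0.05 it gave 2, 0 and 1 of the 29, against the same shares of all genes, and DESeq2 called Map7d2 in males and none in females or both. For edgeR the share called among all genes was 0.00454% in each. The share of all tested genes higher in KO than in WT was 51.9%, 49.0% and 51.4% in males, females and both.

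Hook2, a dynein adaptor at the centrosome, stood at 4.99 and 6.61 CPM in male KO and 23.3 and 26.1 CPM in male WT libraries. In females it stood at 7.98 and 15.8 CPM in female KO and 6.05 and 12.9 CPM in female WT libraries. KO lay well below WT in males, and the groups overlapped in females. The log2 difference in males was -2.09 (SE 0.51, edgeR adjusted p = 1), and the authors' deposited table lists -1.61 with an adjusted p of 0.000117. Map7d2, a microtubule protein that recruits kinesin-1, stood at 481 and 171 CPM in male KO and 105 and 80.1 CPM in male WT libraries. It stood at 151 and 101 CPM in female KO and 111 and 97.0 CPM in female WT libraries. In males KO lay above WT with male_KO1 the highest (log2 difference 1.81, SE 0.48, edgeR adjusted p = 1), and the authors' deposited table lists 1.27 with an adjusted p of 0.0274. DESeq2 as run here gave adjusted p of 0.0245 for Hook2 and 0.00896 for Map7d2.

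Others of the partners with the smallest p in males were Bicd2, a dynein adaptor of vesicles (-0.79, SE 0.26), Pafah1b1, the dynein regulator Lis1 (0.27, SE 0.15), Kifap3, the cargo subunit of kinesin-2 (0.45, SE 0.18), and Fez1, a kinesin-1 adaptor (-0.29, SE 0.15). Each of these values is a log2 difference between KO and WT, and each had an edgeR adjusted p of 1. In females they were the kinesin-1 adaptors Clstn2 (0.50, SE 0.33) and Rhot1 (0.56, SE 0.38), the scaffold Ppfia1 (0.60, SE 0.43), the dynactin subunit Dctn5 (-0.32, SE 0.23), the dynein regulator Ndel1 (-0.36, SE 0.27) and Spdl1, which stood at most at 1.10 CPM in the female libraries. Across both sexes they were Dctn5 (-0.30, SE 0.15), Actr1a of the dynactin filament (-0.16, SE 0.10), Spdl1, Map7d2 (1.04, SE 0.43), Trak2, a mitochondrial adaptor (0.29, SE 0.15), and Clstn3 (0.63, SE 0.35).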

How the data were processed

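The authors deposited whole-number read counts per gene (unit: count), made with featureCounts 1.6.1 over exons of the Ensembl release 97 annotation of GRCm38 per the file header, unstranded and with a read counted in every gene it overlapped. The same file gives the summed exon length of each gene, another value the authors deposited, used here per kb. The submitters' processing notes name mm10, bcl2fastq 2.17.1.14, DESeq2 1.14.1 and Subread 1.6.4. No source used here names the aligner. Per the labels' protocols, cDNA was amplified with 13 PCR cycles and libraries with 12, so counts hold PCR copies and limits by counts cover counting error only. The authors' deposited tables for each sex hold a mean normalized signal, a log2 fold change with its error, a test score and a raw and an adjusted p-value for the genes they list.

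Symbols came from the GENCODE M21 annotation, found for 55480 of 55573 identifiers. Genes kept by filterByExpr (22013) were scaled by TMM (0.979 to 1.02) and tested by the two-sided quasi-likelihood test of edgeR (version 4.0.16, R 4.3.3), using a fit of 4 groups (4 residual degrees of freedom) for each sex and for the difference between the sexes. KO against WT across both sexes, and males against females, came from an additive fit of sex and genotype (5 residual degrees of freedom). P-values were adjusted by Benjamini-Hochberg over all tested genes, and 0.05 was the threshold. CPM use the TMM-scaled totals, and fold changes are log2 values. The SE of an edgeR log2 value was derived as its absolute size over the square root of the F statistic of the test. Scripts were tested on simulated data. Alternatives were DESeq2 1.42.0 and its size factors, no low-count filter, the replicate number as a block, each sex fitted alone and each library left out.

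Genes were named if they passed a test, if they had 1 of the 6 smallest p-values in a comparison of KO with WT with a mean of at least 5 CPM, if they were among the 3 highest per kb of a role, or if they stood in the authors' tables. For the adaptor lists the 3 smallest p-values per comparison were named. The genes and lists were chosen with earlier results of these data known. Replicates differed far beyond counting error, by 105 to 287 in chi-square per degree of freedom.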

Additional observations from a re-analysis of the deposited data

Results flagged for a closer look

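Kif1c, a kinesin-3 near the lower end of the axonal kinesins, was singled out because its KO libraries lay on opposite sides of the WT libraries in the sexes. It stood at 3.24 and 2.19 CPM in male KO and 4.92 and 3.25 CPM in male WT libraries. In females it stood at 3.97 and 6.61 CPM in female KO and 0.900 and 2.33 CPM in female WT libraries. The difference between the male and the female effect was -2.30 on the log2 scale (SE 0.99, unadjusted p = 0.053, edgeR adjusted p = 0.98), so it did not pass the test. The same pattern was shown by 1 of the 53 tested motor genes (1.89%) and by 4.77% of all tested genes.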

How the results depend on the processing

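The count of motor genes called stayed at 0 in all 5 comparisons under every alternative run, DESeq2 and the replicate block included. The axonal kinesins stood above the mitotic ones by 7.76 on the log2 scale, and by 7.69 to 7.87 with single libraries left out, 7.76 without TMM and 8.12 per length of the longest transcript. In every library the mitotic median, at most 0.0750 CPM per kb of exon, was below the 0.1 added to it. That constant largely set the mitotic side of the 7.76 and of the values without single libraries or TMM. Taking the mean of log2 values in place of the median gave 5.78, and the cause was not tested. Several small differences across both sexes changed sign when single libraries were left out, with log2 values from -0.040 to 0.31 for Dync1i1, from -0.21 to 0.077 for Dync1li1, from -0.096 to 0.12 for Dynll1, from -0.55 to 0.67 for Kif23, from -0.060 to 0.20 for Kif5c, from -0.49 to 0.65 for Kif9, from -0.029 to 0.16 for Klc1 and from -0.089 to 0.13 for Klc2. None of these passed in any setting. The differences between libraries 1 and 2 in KO and in WT correlated at -0.0143 in males and 0.00145 in females over 22013 genes. Of these genes 12125 averaged below 10 CPM, where replicates differed more. The correlation therefore cannot decide whether the replicate numbers paired the samples. With the number as a block, 0 motor genes passed in each comparison, Kif23 was at -0.094 across both sexes against 0.32, and the dynein light chain median was -0.065 in females against -0.21. Whether depth or the spread between replicates limited the tests of low motor genes was not tested.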

Other observations

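Library number 1 stood above library number 2 in all 4 groups for 10 of the 53 tested motor genes, and below it in all 4 for 2, Kif20a and Kif9. Among all tested genes the shares were 7.89% above and 7.22% below, and of the 2237 genes that averaged 100 CPM or more, 246 were above and 219 below. The 10 were Kif1a, Kif1b, Kif21a, Kif5b and Kif5c of the 14 axonal kinesins, Dync1h1, Dynll2, Kif23, Kif26b and Kif2a, all named after their values were seen. The labels give no meaning to the number beyond that of a replicate.

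The replicates of a group also differed by role. The median absolute log2 difference between the 2 libraries of a group was 0.39 for the axonal kinesins, 0.33 for dynein 1 core subunits, 0.54 for dynein light chains, 1.38 for the 8 tested mitotic kinesins and 1.69 for the 7 tested cilium motors. It was 0.61 for all tested genes, 0.28 for those that averaged 100 CPM or more and 1.08 for those below 10 CPM.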
